A study of Mus musculus with 6 samples.

Results

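The Dlk1-Meg3 domain is an imprinted gene cluster on mouse chromosome 12, and it was followed here through 6 genes listed by name: Dlk1, Meg3, Rtl1, Rian, Mirg and Dio3. Each gene was placed in the 50 kb bin of its lower coordinate in a RefSeq table of 47042 autosomal genes. The 6 genes fell into 6 different bins out of 47875 autosomal bins with contacts, and into a window from 108.5 to 111.2 Mb that holds 54 bins. Every window bin had enough contacts in all libraries to be used, whereas over the autosomes 27836 bins (58.1%) did. No measured value entered the rule that chose the genes, but earlier results of these data were known at the choice.

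The contact maps came from in-situ Hi-C of mouse embryonic stem (ES) cells, pluripotent cells of the early embryo grown in culture, of strain 129. Hi-C counts how often a pair of DNA segments is ligated together in crosslinked nuclei, here after a cut with MboI. Of the libraries, 3 carry the label wild type (WT), and 3 carry the label GFP-CTCF-Del8 (Del8), for a CTCF protein without zinc finger 8. The series' text speaks of biological replicates and describes the comparison line as expressing GFP-CTCF, while the sample labels say wild type only, so whether the WT cells also carry the tag is not settled. How many clones each line stands for is not given in the sources used here. Both groups share the strain and the cell type; Hi-C holds no RNA, so the label could not be checked against marker genes.

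The DNA-binding protein CTCF uses zinc fingers to find its sites, and together with cohesin it shapes the borders of contact domains. In an imprinted domain the maternal and the paternal copy of a gene differ in activity. In this domain Dlk1, Rtl1 and Dio3 are known as protein-coding genes expressed mainly from the paternal chromosome, and Meg3, Rian and Mirg as non-coding RNAs expressed from the maternal one, under the control of a differentially methylated region between Dlk1 and Meg3. Dlk1 encodes a transmembrane protein related to Notch ligands. Rtl1 encodes a protein derived from a retrotransposon and needed in the placenta, and Dio3 encodes the deiodinase that inactivates thyroid hormone. Rian carries many small nucleolar RNAs and Mirg many microRNAs. The deposited counts do not separate the parental chromosomes, so each value below sums over both.

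In mm10 coordinates, Dlk1 spans chr12:109452485-109463336, Meg3 chr12:109540996-109571729, Rtl1 chr12:109564900-109604418, Rian chr12:109603945-109661716, Mirg chr12:109734981-109749458 and Dio3 chr12:110279230-110281097. The upper coordinate of Rtl1 lies in the bin of Rian, and the spans of Meg3 and Rtl1 overlap. The bin of Mirg lies 250 kb beyond that of Dlk1, and the bin of Dio3 another 550 kb further. No protein-coding gene starts between the bins of Rtl1 and Dio3. Before Dlk1, 384 kb separate the end of Begain from Dlk1.

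The sequences of the RefSeq tables (GRCm38.p6, the assembly of mm10) show what the member bins hold. The tables place 57 microRNA hairpins between the bins of Dlk1 and Mirg, 37 in the bin of Mirg, 16 in the bin of Rtl1 and 3 in the bin of Rian, with 1 more in the bin after Rian. No other autosomal bin holds as many hairpins as the bin of Mirg, and the bin of Rtl1 comes next. The 57 hairpins include none in the bin of Meg3, although the mature miR-1906 is listed there. From the bin of Dlk1 to that of Mirg the table lists 112 mature microRNAs, miR-1906 among them. They carry 102 different seeds, the bases 2 to 8 that pair with target RNAs, and 10 seeds occur in more than 1 of them. The following pairs are shown because they share a seed, in capitals, across or within member bins. The first pair joins the bin of Rian (chr12:109618270-109618289, inside the span of Rian) with the bin of Mirg (chr12:109715750-109715770), and the second pair lies in the bin of Mirg (chr12:109709065-109709085 and chr12:109715716-109715735), all on the plus strand:
miR-370-5p: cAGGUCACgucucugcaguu
miR-1193-3p: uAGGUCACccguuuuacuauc
miR-379-5p: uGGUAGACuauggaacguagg
miR-1193-5p: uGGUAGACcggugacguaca
From the bin of Rtl1, 2 microRNAs are shown because they lie inside the span of Rtl1 (chr12:109592888-109592909 and chr12:109595331-109595352, plus strand), with their seeds in capitals:
miR-127-3p: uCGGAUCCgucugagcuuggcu
miR-136-5p: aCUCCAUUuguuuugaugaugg
The 15 small nucleolar RNAs of the bin after Rian and the 4 in the bin of Rian complete the small RNAs of the cluster. None of these RNAs was measured by the Hi-C, and a 50 kb bin cannot separate them from their host gene.

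Because the mutated protein is CTCF, the promoters of the members (250 bases before to 50 after the start) were searched on both strands for the CTCF consensus motif and for its short core CCCTC. The consensus occurs in 180 of 31396 autosomal promoters of the table (0.573%) and in none of the members' promoters that the table holds, which are those of Dlk1, Meg3, Rian, Mirg and Dio3. The core occurs in 66.3% of promoters. The promoter of the first Meg3 start is shown as the one beside the imprinting control region, and that of Dio3 as the member next to a border of the contact map described below, with any match of the core in capitals (chr12:109540746-109541045 and chr12:110278980-110279279, plus strand):
Meg3: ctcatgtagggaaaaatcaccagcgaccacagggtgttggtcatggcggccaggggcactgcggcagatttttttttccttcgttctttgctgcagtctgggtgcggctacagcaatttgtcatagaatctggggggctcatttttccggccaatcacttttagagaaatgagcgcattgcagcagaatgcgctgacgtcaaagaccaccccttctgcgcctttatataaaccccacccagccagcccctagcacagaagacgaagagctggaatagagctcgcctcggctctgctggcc
Dio3: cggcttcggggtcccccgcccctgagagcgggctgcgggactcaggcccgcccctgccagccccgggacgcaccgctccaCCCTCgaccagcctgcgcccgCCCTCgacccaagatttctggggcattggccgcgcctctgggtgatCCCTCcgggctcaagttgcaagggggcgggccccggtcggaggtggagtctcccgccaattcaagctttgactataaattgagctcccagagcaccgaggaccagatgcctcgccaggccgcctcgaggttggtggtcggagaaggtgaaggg
The promoter of Dio3 holds 3 cores, 25 CpG dinucleotides and 69.0% G and C, and that of the first Meg3 start 0 cores, 13 CpG and 53.7%. Among the promoters not shown, those of Dlk1 and Rian hold 2 cores each, that of the second Meg3 start 1 and that of Mirg 0. A match of letters is a description of the sequence and not a measured binding site.

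The libraries held from 24038030 contacts (WT replicate 1) to 66266759 (Del8 replicate 1). Many autosomal bins had lost contacts in WT replicate 1 (37.7%) and WT replicate 2 (38.0%), but few in WT replicate 3 (0.0752%) and between 0.0355% and 9.31% in Del8 libraries. All 54 window bins passed the screen for such losses, and results are given below without WT replicates 1 and 2 where that changed them. The poorest window bin in any library, chr12:109200001-109250000 in WT replicate 1, still held 826 contacts. The member bins' contacts were scaled per 1000000 contacts between the autosomal bins of a library that passed the screen. The library totals were not used as the scale. Scaled in this way, the contacts overlapped between the groups for all 6 genes. On this scale the bin of Rian was the poorest (55.9 ± 2.0 in WT against 54.0 ± 1.3 in Del8, SD, n = 3 libraries each) and that of Dio3 the richest (104.1 ± 8.2 and 107.2 ± 2.3). The smallest exact permutation p among the 6 bins was 0.20.

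The first comparison asked whether the members lie at or away from a border of contact domains, and whether this differed in Del8. The insulation score was used: balanced contacts were averaged over a square of 500 kb by 500 kb that spans the bin, divided by the chromosome's mean, and put on a log2 scale. A low score means few contacts across the bin, as at a border. The score climbed through the cluster from Dlk1 to Mirg, and the bin of Dio3 lay on the slope of a border that begins 100 kb further on. In Del8 the score of the bins of Rtl1 and Mirg fell slightly, that of Dio3 rose slightly, and the bins of Dlk1, Meg3 and Rian passed no test. The sharpest change of the whole window lay just beyond Dio3, at the border itself.

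Given in the order of the replicates, the Mirg bin scored 0.38, 0.32 and 0.29 in WT against 0.24, 0.25 and 0.24 in Del8. The Rian bin had 0.28 in each WT library and 0.24, 0.22 and 0.20 in the Del8 libraries. For Rtl1 the WT scores were 0.23, 0.23 and 0.25 and the Del8 scores 0.18, 0.18 and 0.15. In these 3 bins, as in the other member bins, all Del8 libraries lay on 1 side of all WT libraries.

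The Meg3 bin had 0.18, 0.17 and 0.19 in WT against 0.16, 0.14 and 0.14 in Del8. The Dlk1 bin had 0.15, 0.14 and 0.14 in WT against 0.13, 0.11 and 0.11 in Del8. In the Dio3 bin the WT scores were -0.45, -0.39 and -0.44 and the Del8 scores -0.31, -0.36 and -0.37. The order of the levels in WT was thus Mirg, Rian, Rtl1, Meg3, Dlk1 and Dio3. Among neighbours in that order Mirg and Rian differed by about the spread of the libraries, 0.33 ± 0.05 against 0.28 ± 0.001 (SD, n = 3), and the other neighbours by more. Neighbouring squares share most of their contacts, so the member bins are not independent of each other.

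The difference of Del8 minus WT was fitted with limma over 22056 scored autosomal bins with Benjamini-Hochberg adjustment. It was -0.08 for Mirg (SE 0.031, adjusted p = 0.032), -0.07 for Rtl1 (SE 0.027, adjusted p = 0.040) and 0.08 for Dio3 (SE 0.030, adjusted p = 0.038). For Rian it was -0.05 (adjusted p = 0.091), for Meg3 -0.03 (adjusted p = 0.33) and for Dlk1 -0.02 (adjusted p = 0.42). On the linear scale these are 0.943 times the WT contact across the Mirg bin and 1.06 times across the Dio3 bin. Of the 6 member bins 3 were called, where 62.5% of all scored bins were (32.3% with a rise and 30.2% with a fall). The groups did not overlap in 67% of all scored bins, so the separation of the libraries in the member bins is near the background. The calls at Rtl1, Mirg and Dio3 did not survive a 250 kb square, under which the differences were 0.01, -0.01 and 0.06 (adjusted p = 0.82, 0.92 and 0.22), and the signs at Dlk1 and Meg3 turned to 0.06 and 0.07. The Rtl1 call was also lost when any 1 library was left out, the Mirg call without WT replicate 1 (-0.06, adjusted p = 0.10) or any Del8 replicate, and the Dio3 call without Del8 replicates 1 or 2 or WT replicates 1 or 3.

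Across the window the changes fell into runs. Squares of neighbouring bins share most of their contacts, so the bins of a run are not independent. The score rose in 17 of 54 window bins (31.5%) and fell in 14 (25.9%). These shares are not above the 32.3% and 30.2% of all scored bins. The median difference was 0.02 against 0.0015 over all scored bins. From Dlk1 to Mirg, 3 of 6 bins fell and 0 rose. In the stretch between Mirg and Dio3, where no protein-coding gene starts, 4 of 10 bins fell and 0 rose. After Dio3, 8 of 18 bins rose and 0 fell. Before Dlk1, 8 of 19 bins rose, all at the start of the window up to the bin of Wars and Wdr25, and 7 fell, from the bin of Begain onward. Wars encodes the tryptophanyl-tRNA synthetase and Begain a protein of neuronal synapses. The count of falls in the window was 7 to 9 without any 1 of Del8 replicates 1 to 3 or WT replicates 1 or 2, and 6 without WT replicates 1 and 2 together.

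**Figure D1:**
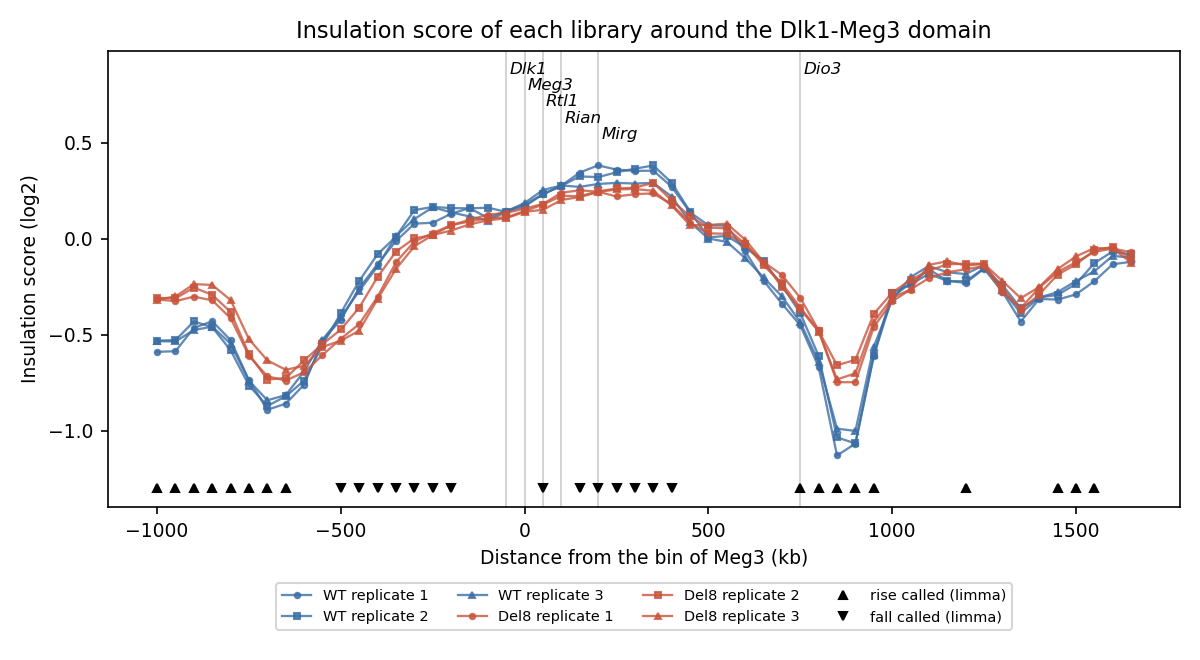
Insulation score (y axis, log2) of each 50 kb bin against its distance from the bin of Meg3 (x axis, kb), with 1 line per library, WT in blue and Del8 in red. Triangles at the bottom mark bins with a rise or fall called by limma, and grey lines mark the members; the Del8 lines lie above the WT lines at the minimum just after Dio3 and below them around Mirg.

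The 3 largest rises of the window included both bins of the border after Dio3. In the bin of Ppp2r5c (chr12:110400001-110450000), which encodes a regulatory subunit of protein phosphatase 2A, the score was -1.07, -1.07 and -1.0 in the WT libraries and -0.75, -0.63 and -0.70 in Del8. All Del8 libraries were higher, by 0.35 (SE 0.035, limma adjusted p = 1.34e-05), or 1.28 times the WT contact across the bin. In the bin before it (chr12:110350001-110400000), the score was -1.13, -1.04 and -0.99 in WT against -0.75, -0.66 and -0.73 in Del8, a difference of 0.34 (SE 0.039, limma adjusted p = 3.53e-05). The other large rise, 0.24, lay in the first bin of the window, outside the domain. The 3 largest falls lay between the lower coordinates of Begain and Dlk1, 250 to 400 kb before the bin of Dlk1 (-0.18, -0.15 and -0.13, with limma adjusted p = 0.0011, 0.0033 and 0.0031). The bin of the largest fall also holds the upper end of Begain. The bins of the border kept their calls without WT replicates 1 and 2 (0.31 and 0.28, limma adjusted p = 0.00051 and 0.00058).

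A border was counted as a local minimum of the score of the map summed over all libraries, with a prominence of at least 0.2. By this rule the autosomes had 1030 borders, the window 3, and the stretch from the Dlk1 to the Dio3 bin none. The members therefore all lay in 1 contact domain, between a border at Wars and Wdr25 (chr12:108850001-108900000), 600 kb before Dlk1, and a border 100 kb after Dio3 (chr12:110350001-110400000). The border after Dio3 had the prominence rank 139 of 1030. The strength of a border is the score there minus the mean score 250 kb to either side, so a stronger border has a lower value. After Dio3 it was -1.02, -0.92 and -0.87 in WT against -0.63, -0.56 and -0.66 in Del8. The Del8 border was weaker in 3 of 3 libraries, by 0.32, with groups that did not overlap; the exact permutation p was 0.10, the smallest that 3 against 3 can give, and 0.15 adjusted over the 3 borders. The border at Wars had -0.54 ± 0.03 in WT against -0.45 ± 0.05 in Del8 (SD, n = 3), also without overlap. The border at Zfp839, Cinp and Tecpr2, 600 kb after Dio3, had -0.27 ± 0.02 and -0.24 ± 0.03, with overlap. The strength was computed for the borders of the window only. In the insulation score itself a rise was common at borders: 51.6% of the 1030 border bins had a rise, and 161 bins had a fall. Among the 1030, 119 bins rose at least as much as the border bin after Dio3 (0.34).

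The second comparison asked how much the parts of the domain contacted each other. Balanced contact was set against the average of all chromosome 12 pairs equally far apart in that library (observed over expected), so that 1 is the chromosome's average. In WT the cluster from Dlk1 to Mirg contacted itself less than average, and contacted Dio3, 800 kb from Dlk1, more than average. In Del8 the contact of the cluster with Dio3 lay closer to the average. The contact of the domain with the region beyond the border after Dio3 was far below average in both groups and slightly less so in Del8.

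The 6 bins from Dlk1 to Mirg contacted the Dio3 bin at 1.49, 1.37 and 1.39 times the expectation in WT and at 1.20, 1.19 and 1.17 times in Del8. Every Del8 library lay below every WT library, and the ratio of the means was 0.838. This block rests on 6 bin pairs with 115 to 153 raw contacts in WT against 157 to 262 in Del8. The cluster contacted the stretch before Dio3 at 1.21 ± 0.04 in WT against 1.12 ± 0.02 in Del8 (SD, n = 3), again without overlap. Without WT replicates 1 and 2 this difference shrank from -0.09 to -0.04.

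Within the cluster, contact was 0.806 ± 0.047 in WT against 0.849 ± 0.015 in Del8 (SD, n = 3), and the groups overlapped. The Dlk1 bin contacted the bins of Meg3 to Mirg at 0.847, 0.744 and 0.917 in WT and at 0.842, 0.923 and 0.922 in Del8, also with overlap. Within the stretch between Mirg and Dio3, contact was 0.813 ± 0.012 in WT against 0.879 ± 0.029 in Del8, without overlap. Over the whole domain from Dlk1 to Dio3 it was 1.02 ± 0.02 and 0.998 ± 0.015, with overlap.

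The domain contacted the window before Dlk1 at 1.18, 1.23 and 1.21 in WT and at 1.03, 1.02 and 1.01 in Del8, a difference of -0.19 without overlap. Not every member bin shared this difference. The mean contact with that window was 0.802 in WT and 0.803 in Del8 for Dlk1, and 0.837 and 0.822 for Meg3. It was 0.845 and 0.813 for Rtl1, and 1.82 and 1.51 for Dio3. The groups overlapped for these members, but not for Rian and Mirg, given below. With the window after Dio3 the values of the domain were 0.591, 0.613 and 0.633 in WT against 0.654, 0.662 and 0.653 in Del8. The region before Dlk1 and the region after Dio3 contacted each other at 1.24 ± 0.06 and 1.07 ± 0.01 (SD, n = 3), without overlap. Each of the 6 blocks without overlap had an exact permutation p of 0.10, adjusted to 0.15 over 9 blocks, so that none could pass a threshold of 0.05. The share of such blocks elsewhere in the genome was not counted, and separated groups were common for the insulation score (67% of all scored bins). Raw contacts were also counted per 1000000 contacts between the autosomal bins that passed the screen, with neither balancing nor correction for distance. The library totals were not used as the scale. Only 2 blocks then stayed without overlap: within the stretch between Mirg and Dio3 (107.7 ± 4.3 against 117.2 ± 4.0) and the domain with the window after Dio3 (120.8 ± 11.7 against 141.6 ± 1.2, SD, n = 3). The cluster then contacted Dio3 at 5.37, 6.0 and 6.09 contacts per 1000000 in WT and at 5.73, 5.50 and 5.63 in Del8. The lower contact of the cluster with Dio3 in Del8 thus holds for balanced contact relative to other bin pairs of the same distance. In raw contacts per 1000000 contacts between screened bins the groups overlapped, and whether they do per library total was not tested.

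**Figure D2:**
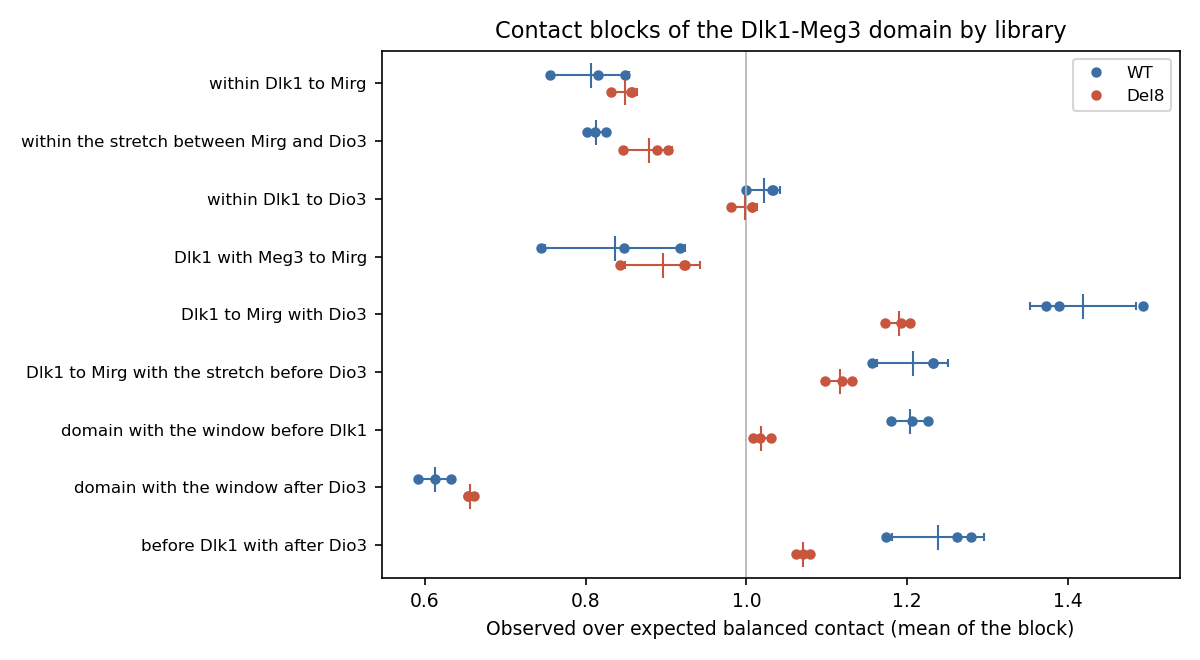
Observed over expected balanced contact (x axis; 1 is the mean of chromosome 12 at that distance) of the 9 blocks (y axis), with 1 point per library, a tick at the mean and a bar of 1 SD. The Del8 points lie left of the WT points for Dlk1 to Mirg with Dio3 and for the domain with the window before Dlk1, and right of them for the domain with the window after Dio3.

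The Dio3 bin was then followed along the window. These measures were added after the scores had been seen. Its contact with the 5 bins from the border at Wars was 2.31, 2.67 and 2.46 in WT against 1.64, 2.24 and 1.94 in Del8, without overlap. With the 5 bins before Dlk1 it was 1.43 ± 0.26 and 1.36 ± 0.10 (SD, n = 3), with overlap, and with the 10 bins just before Dio3 it was 0.934 ± 0.039 and 0.935 ± 0.029. With the 10 bins from the border after Dio3 onward it was 0.448, 0.469 and 0.507 in WT against 0.587, 0.686 and 0.568 in Del8. All Del8 libraries were higher there, at 1.29 times the WT mean. The exact permutation p was 0.10 for the values without overlap, and 0.20 adjusted over the 6 values compared. The cluster from Dlk1 to Mirg, in contrast to the bin of Dio3, had overlapping groups with the same 10 bins beyond the border (0.619 ± 0.057 and 0.648 ± 0.028); whether the 2 differences differ was not tested.

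Among the other members, the Dlk1 bin contacted the domain up to Dio3 at 1.20, 1.38 and 1.32 in WT and at 1.11, 1.15 and 1.05 in Del8, without overlap. The Rian bin contacted the window before Dlk1 at 0.894, 0.950 and 0.911 in WT and at 0.814, 0.791 and 0.774 in Del8. The Mirg bin did so at 0.960 ± 0.060 and 0.872 ± 0.038 (SD, n = 3), without overlap. For the bins of Meg3 and Rtl1 all values compared overlapped between the groups. Of 18 values, 5 did not overlap: these 3 and 2 of the Dio3 bin. Their exact permutation p was 0.10 and 0.36 after adjustment over the 18. How often such values separate elsewhere in the genome was not counted. For the insulation score, the groups did not overlap in 67% of all scored bins.

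**Figure D3:**
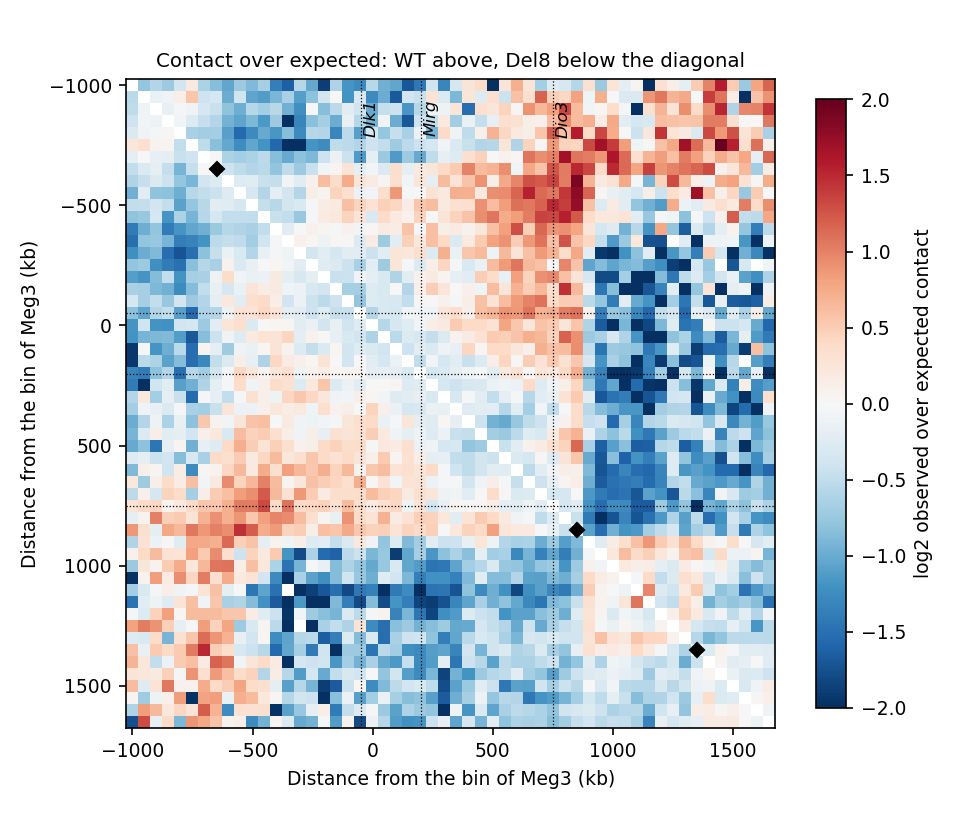
Mean contact over expected (colour, log2) of pairs of 50 kb bins in WT (above the diagonal) and Del8 (below), both axes in kb from the bin of Meg3; dotted lines mark Dlk1, Mirg and Dio3, and diamonds the 3 borders. The red corner between the border at Wars and the border after Dio3 is darker in WT, and the blue field beyond the border after Dio3 is paler in Del8 next to the border.

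The third comparison tested single bin pairs with edgeR's quasi-likelihood test on raw counts, over 511077 autosomal pairs of 50 kb bins. Of these 0.859% were called at an adjusted p below 0.05, 0.454% with more contact in Del8 and 0.405% with less. Of 1044 window pairs 2 were called. None of the 15 pairs of member bins was called, and 0 of them reached an unadjusted p below 0.05, with edgeR; DESeq2 called 0 pairs of the window. The counts behind the member pairs were small. Dlk1 and Dio3 had 12, 24 and 40 contacts in WT against 46, 29 and 23 in Del8, which is 3.49 and 2.57 times the expected count (log2 fold change -0.46, SE 0.27, edgeR adjusted p = 0.49). Dlk1 and Meg3, neighbouring bins, had 100, 120 and 117 contacts in WT against 232, 201 and 171 in Del8, which is 1.13 and 1.32 times the expected count (log2 fold change 0.20, SE 0.12, edgeR adjusted p = 0.50). The WT and Del8 counts over expected overlapped in both pairs. These ratios use raw counts and are not corrected for the coverage of each bin. Balanced contact over expected was lower in both groups, at 1.66 in WT and 1.28 in Del8 for Dlk1 with Dio3, and at 0.666 and 0.839, below the average, for Dlk1 with Meg3. The other 13 member pairs had log2 fold changes between -0.40 (Meg3 with Dio3) and 0.14 (Rtl1 with Mirg).

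The 2 called window pairs held no member. The bin of Ankrd9 (chr12:110950001-111000000) and that of Traf3 (chr12:111150001-111200000) had 31, 49 and 43 contacts in WT against 127, 96 and 85 in Del8 (log2 fold change 0.66, edgeR adjusted p = 0.038). A bin 100 kb before that of Dlk1 (chr12:109350001-109400000) and the bin after that of Dio3 (chr12:110300001-110350000) had 13, 27 and 14 contacts in WT against 21, 7 and 5 in Del8 (log2 fold change -1.58, edgeR adjusted p = 0.017). The first call was lost without WT replicates 1 or 3 or any Del8 replicate, and the second without WT replicate 2 or Del8 replicates 2 or 3. Of the 256 tested pairs that cross the border after Dio3, 64.8% had a log2 fold change above 0, against 50.9% over the autosomes. An unadjusted p below 0.05 was reached by 19 of them with more contact and by 3 with less, which is 7.42% and 1.17% against 6.49% and 5.87% over the autosomes. The share with more contact is thus near that of all pairs.

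Bins of 100 kb gather more contacts per pair and were tested in the same way. The test then covered 178524 autosomal pairs, of which 7.18% were called, 3.85% with more and 3.33% with less contact in Del8. Of 328 window pairs 5.79% were called, 7 with more contact and 12 with less, below the share over the autosomes. In these bins Meg3 and Rtl1 share a bin. Ratios to the expected count are again of raw counts, not balanced. Of the 120 tested pairs with a member bin, 6.67% were called, also below the 7.18% of all pairs. Among them 2 had more contact (1.67%) and 6 had less (5%). Of the 10 pairs of member bins, Dlk1 with Dio3 was called.

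Dlk1 and Dio3 had 73, 121 and 128 contacts in WT against 208, 134 and 94 in Del8, which is 3.72 and 2.73 times the expected count. The contact fell by 0.42 on the log2 scale (SE 0.13, edgeR adjusted p = 0.028), while the range of the Del8 libraries in count over expected reached into that of WT. Rian with Dio3 had 86, 75 and 91 contacts in WT against 149, 106 and 103 in Del8 (1.97 and 1.57 times expected; log2 fold change -0.33, edgeR adjusted p = 0.16). Meg3 and Rtl1 with Dio3 had 2.80 and 2.45 times the expected count (log2 fold change -0.21, edgeR adjusted p = 0.38), and Mirg with Dio3 1.75 and 1.84 times (log2 fold change 0.08, edgeR adjusted p = 0.81). The 6 pairs within the cluster had log2 fold changes between -0.11 (Dlk1 with Mirg) and 0.04.

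The Dlk1 bin had less contact in Del8 with 2 further bins of the stretch before Dio3. With chr12:110100001-110200000 it had 103, 120 and 125 contacts in WT against 206, 126 and 99 in Del8 (3.35 and 2.23 times expected; log2 fold change -0.56, SE 0.13, edgeR adjusted p = 0.0012). With chr12:110000001-110100000 the log2 fold change was -0.40 (edgeR adjusted p = 0.035). The first 100 kb bin after the border at Wars (chr12:108900001-109000000) had less contact with Dlk1 (log2 fold change -0.38, edgeR adjusted p = 0.031) and with Rian (-0.58, edgeR adjusted p = 0.037). Between the starts of Begain and Dlk1, the bin chr12:109300001-109400000 had less contact with Dio3, at 2.83 times the expected count in WT against 2.01 times in Del8 (log2 fold change -0.48, SE 0.16, edgeR adjusted p = 0.0498).

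The Dio3 bin had more contact in Del8 across the border after it. With chr12:110500001-110600000 it had 68, 61 and 82 contacts in WT against 239, 141 and 134 in Del8 (0.751 and 1.1 times expected; log2 fold change 0.56, SE 0.14, edgeR adjusted p = 0.0029). All Del8 libraries were above all WT libraries in count over expected. With the bin of Mok, Zfp839, Cinp and Tecpr2 (chr12:110800001-110900000) the log2 fold change was 0.52 (edgeR adjusted p = 0.046). The largest rises of the window also crossed that border. They joined the stretch before Dio3 (chr12:110000001-110100000) with the bin of Mok (0.84, edgeR adjusted p = 0.020) and with that of Ppp2r5c (0.66, edgeR adjusted p = 0.0038), and chr12:110100001-110200000 with chr12:110500001-110600000 (0.60, edgeR adjusted p = 0.020). Of 121 pairs across the border, 5 had more contact (4.13%, near the 3.85% of all pairs) and 0 less.

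Among the 5 largest falls, 3 joined the beginning of the contact domain with its last 300 kb. Begain with chr12:110300001-110400000, the bin that holds the border after Dio3, had 5.16 times the expected count in WT against 3.24 times in Del8 (log2 fold change -0.67, edgeR adjusted p = 0.0041). The first bin after the border at Wars had 4.09 and 2.6 times the expected count with chr12:110100001-110200000 (log2 fold change -0.64, edgeR adjusted p = 0.013), and 4.74 and 3.14 times with the bin that holds the border (-0.57, edgeR adjusted p = 0.036). The others were the pair with Rian given above and the border's bin with chr12:109300001-109400000 (-0.62, edgeR adjusted p = 0.044). In each of these pairs a single end lies further inside the domain. Of the 81 tested pairs between the domain and the window before Dlk1, 4 had less contact (4.94%, against 3.33% of all pairs) and 0 more, with a median log2 fold change of -0.28.

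The direction of all 19 called pairs was the same in each of 10 other settings, yet the calls depended on the setting: 3 to 18 of the 19 calls remained, 5 of them with DESeq2. Dlk1 with Dio3 was not called with DESeq2 (adjusted p = 0.12), with TMM factors (0.079), or without WT replicate 2 (-0.26, edgeR adjusted p = 0.36), WT replicate 3, Del8 replicate 2 or Del8 replicate 3. Dio3 with chr12:110500001-110600000 lost its call without Del8 replicate 1 (0.49, edgeR adjusted p = 0.057). The pair of Dio3 and chr12:109300001-109400000 was called in none of the 10 other settings (edgeR adjusted p = 0.061 with the replicate number as a block and 0.065 to 0.20 when 1 library was left out). The first bin after the border at Wars lost its call with Rian in all but 2 of them (DESeq2 adjusted p = 0.11), and its call with Dlk1 with DESeq2 (adjusted p = 0.095) or without Del8 replicates 1 or 3 or WT replicates 1 or 2. Dlk1 with chr12:110000001-110100000 was not called with DESeq2, TMM factors, or without Del8 replicates 1 or 3 or WT replicates 2 or 3. Dio3 with the bin of Mok was not called with DESeq2 or when any library but Del8 replicate 1 was left out. Dlk1 with chr12:110100001-110200000 kept its call when any 1 library was left out. None of the 8 called pairs with a member passed without WT replicates 1 and 2 together, which leaves 1 WT library.

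**Figure D4:**
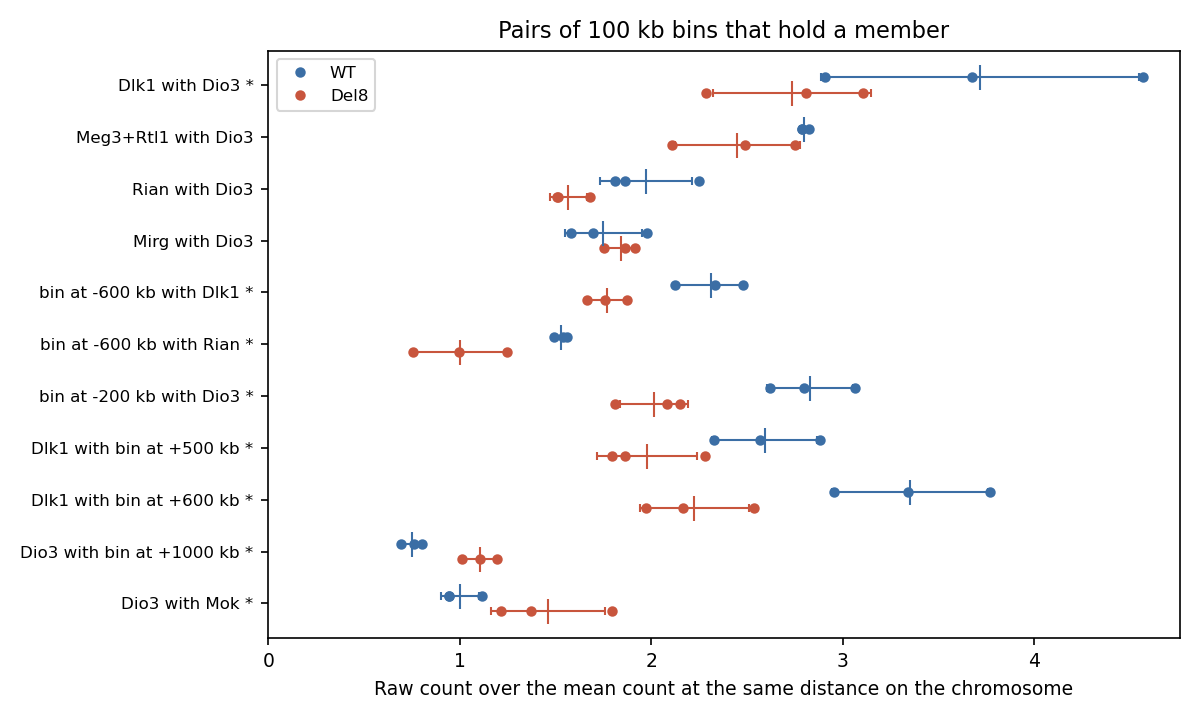
Raw count over the mean count at the same distance (x axis) of pairs of 100 kb bins that hold a member (y axis; distances are from the bin of Meg3, and Mok stands for Mok, Zfp839, Cinp and Tecpr2), with 1 point per library, a tick at the mean and a bar of 1 SD. Asterisks mark pairs called by edgeR; the Del8 points lie left of WT for Dlk1 with the bin at +600 kb and right of WT for Dio3 with the bin at +1000 kb.

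The compartment of the members was read from the eigenvector of the correlation matrix of chromosome 12 at 250 kb, signed so that gene-dense regions are positive and scaled to an SD of 1. The 3 bins that hold members averaged -0.82, -0.33 and -0.15 in WT against -0.39, -0.22 and -0.13 in Del8. The groups overlapped, and the exact permutation p was 0.60. The 250 kb bins of the members did not share a side. Those of Dlk1 and of Meg3 to Mirg were negative in all libraries (WT means -0.83 and -0.91). The bin of Dio3 was positive in all libraries (0.44 in WT and 0.39 in Del8). That bin (chr12:110250001-110500000) also spans the border after Dio3 and the 50 kb bin of Ppp2r5c, so its sign is not that of Dio3 alone. The side of the average also depended on the processing, since it was positive in all libraries without centring (0.32 to 1.39) and with a looser screen of bins (0.61 to 0.93), and of mixed sign with log values (-0.90 to 0.66). No compartment is therefore assigned to the members.

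Other imprinted genes, from a list of 25, served as a comparison for the member bins. Their starts gave 17 scored bins, of which 4 rose in insulation score, 3 fell and 10 were not called, with a median difference of 0.02, against 32.3% and 30.2% of all bins. The rises were at Igf2, the growth factor gene (0.25), at Cdkn1c, a cell cycle inhibitor (0.12), at Nnat (0.20) and at Impact (0.58), and the falls at Kcnq1ot1, the imprinted non-coding RNA (-0.36), at Mest (-0.35) and at Gnas (-0.12). H19 passed no test (0.04, limma adjusted p = 0.43). Among these genes, the bins with scores most like those of the Meg3 bin over the 6 libraries, by the root mean square difference, were those of Peg13 (0.0490), H19 (0.0638) and Gnas (0.165). From a list of 10 regulators of imprinting, 9 bins were scored, of which 8 rose and 0 fell, against 32.3% and 30.2% of all bins. The median difference was 0.09. The rises included the maintenance DNA methyltransferase gene Dnmt1 (0.17), its partner Uhrf1 (0.23), the de novo methyltransferase gene Dnmt3b (0.18) and Dppa3 (0.60). Some rises lay just under the threshold. Ctcf itself had 0.07 (limma adjusted p = 0.048), and Dnmt3a had 0.07 (limma adjusted p = 0.047). Zfp57 had 0.09 (limma adjusted p = 0.047), with groups that overlapped.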

How the data were processed

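Each of 6 tables the authors deposited holds raw counts of contacts within chromosomes, binned at 50 kb. Per the submitters' processing notes the build was mm10, and the aligner is not given in the sources used here. Total counts were 24038030, 24512722 and 36233407 for WT and 66266759, 46925260 and 38088173 for Del8. A screen kept bins whose coverage, scaled within each library, reached 0.5 of the third highest library's in all of them and also exceeded 0.1 of the library's scale. Iterative correction balanced each chromosome with the diagonal left out. Insulation scores needed 50% of the square to be usable and were tested with limma 3.58.1. Bin pairs 50 kb to 2 Mb apart with a mean count of at least 5 were tested with edgeR 4.0.16, with offsets for chromosome and distance; DESeq2 1.42.0 was an alternative. The threshold was an adjusted p of 0.05. Single values per library went through exact permutation tests, all two-sided. Scripts were tested on simulated data. The text names all members, the 3 largest rises and falls of insulation, every pair of members, the 5 largest rises and falls among called pairs, and 2 gene lists; the called pairs with a member were added after their values were seen. The members and lists were chosen with earlier results of these data known.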

Additional observations from a re-analysis of the deposited data

How the results depend on the processing

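Insulation rises in the window (17) kept within 1.5 times except under the looser screen of 20 contacts per library, which gave 0, and ranged from 15 to 18 when 1 library was left out. Falls (14) numbered 1 with a 250 kb square, 0 with the looser screen and 6 without WT replicates 1 and 2, and 7 to 13 when 1 library was left out. Window pairs of 50 kb bins called with more and with less contact (1 and 1) became 7 and 12 with 100 kb bins, 0 and 0 with DESeq2 or the looser screen, 0 and 2 with TMM factors, 2 and 3 with a mean count of 10 or more, and 0 with less contact without WT replicates 1 and 2; leaving out 1 library gave 0 to 1 and 0 to 3. DESeq2 gave no adjusted p for the pair with less contact. The looser screen called 0 of 780614 pairs over all autosomes, so its 0 is not particular to the window. Calls at 100 kb (7 and 12) became 3 and 2 with DESeq2 and 2 and 3 without WT replicates 1 and 2; leaving out 1 library gave 4 to 6 and 3 to 12. With the looser screen, in which the means at each distance include bins nearly empty in WT replicates 1 and 2, signs reversed for the contact within Dlk1 to Mirg (-0.80), within the stretch before Dio3 (-0.81), of Dlk1 with Meg3 to Mirg (-0.76), of the domain (-0.17) and of Dio3 (-0.27) with the window after Dio3, of Dio3 with the 10 bins before it (-0.93) and from the border after it (-0.27), of Dlk1 to Mirg with the latter (-0.085), for the pair of Dlk1 and Meg3 (-0.017), and for the insulation of the Dio3 bin (-0.17) and of the first window bin (-0.033), and the eigenvector (-0.11). The 250 kb square reversed the insulation differences of Dlk1 (0.055), Meg3 (0.073) and Rtl1 (0.013). Without WT replicates 1 and 2, signs reversed for Dlk1 with Meg3 to Mirg (-0.021), Dlk1 to Mirg with the bins beyond the border (-0.037), the eigenvector (-0.10) and the contacts per 1000000 of Dio3 (-2.89) and Mirg (-4.18); the last also reversed without contacts within a bin (-1.3). Contact within Dlk1 to Dio3 reversed per 1000000 contacts between bins that passed the screen (12.3). When 1 library was left out, contacts per 1000000 differed by -1.67 to 5.97 (Dio3), -1.98 to 3.66 (Mirg) and -2.45 to 2.36 (Rtl1), the eigenvector by -0.010 to 0.33, and the contact of Dio3 by -0.018 to 0.021 with the 10 bins before it and -0.20 to 0.046 with the 5 bins before Dlk1. Causes were not tested. With the replicate number as a block, 15 bins rose and 13 fell, and 7 and 11 pairs of 100 kb were called; insulation was no longer called at Rtl1 (adjusted p = 0.071) and Dio3 (0.059). Libraries of the same number did not deviate together (correlations -0.09 to -0.02). Member pairs of 50 kb bins held 12 to 232 contacts.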
